A study of Mus musculus with 9 samples.

Results

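Spi1, Cebpa, Cebpb, Cebpd, Cebpe, Cebpg, Irf8 and Gfi1 encode transcription factors of the myeloid blood lineages, which give granulocytes, monocytes and dendritic cells. They were chosen by symbol, and all 8 were among the 55488 genes listed in each of 9 RNA sequencing libraries. A filter of 1 TPM, a length-scaled share of transcripts, or more in at least 3 libraries kept 7 of the 8, all but Cebpe, and 19461 genes in all. Cebpa passed only through the libraries in which it was high, so a gene with this pattern had to differ to be tested at all.

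The libraries were made from 100 sorted mouse fetal liver cells each, from C57BL/6 embryos at embryonic day 14.5, with 3 libraries in each of 3 groups. Evi1 HSC cells carried Tie2-Cre::ROSA-Evi1 and were sorted as GFP+ haematopoietic stem cells (HSC), lineage-negative with c-Kit, Sca-1 and CD150 present and CD48 absent. WT HSC cells carried ROSA-Evi1 with no Cre and met those surface criteria without the GFP one. WT KL cells, also ROSA-Evi1 with no Cre, were lineage-negative with c-Kit present and Sca-1 absent, a gate of committed progenitors. All groups thus carried the ROSA-Evi1 allele, and Tie2-Cre is active in endothelial as well as blood cells. No label says that replicates came from separate embryos, so p-values reflect the spread of these libraries alone, which may be technical.

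PU.1, the ETS factor encoded by Spi1, opens myeloid and lymphoid enhancers, and its amount matters for the choice between lineages. C/EBP proteins bind DNA as dimers through a leucine zipper. Irf8 partners PU.1 in monocytes and dendritic cells, and Gfi1 is a zinc finger repressor that restrains stem cell cycling and favours granulocytes over monocytes. Evi1, encoded at Mecom, has been reported to bind PU.1 and to interfere with its activity.

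The starts of Cebpa, Cebpg and Gfi1 are shown because Cebpa and Gfi1 had the largest fold changes, of the 7 genes that passed the filter, between the stem cell groups and WT KL over the 7 libraries that followed their labels, and Cebpg is the neighbour of Cebpa on chromosome 7. Each is the 250 bases before the RefSeq start (build GRCm38.p6), 5′ to 3′ on the gene's strand, with motif matches in capitals.
Cebpa, chr7:35119043-35119292, plus strand: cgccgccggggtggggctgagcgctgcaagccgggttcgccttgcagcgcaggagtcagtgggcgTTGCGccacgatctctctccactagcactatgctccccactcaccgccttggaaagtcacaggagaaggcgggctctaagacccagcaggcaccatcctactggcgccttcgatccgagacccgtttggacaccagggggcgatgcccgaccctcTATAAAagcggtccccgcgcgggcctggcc
Cebpg, chr7:35056567-35056816, minus strand: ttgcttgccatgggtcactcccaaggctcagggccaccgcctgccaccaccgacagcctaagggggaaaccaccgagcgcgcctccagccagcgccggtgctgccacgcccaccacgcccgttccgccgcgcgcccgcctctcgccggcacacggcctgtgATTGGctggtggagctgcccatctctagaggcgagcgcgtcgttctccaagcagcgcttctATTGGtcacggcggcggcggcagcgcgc
Gfi1, first of 2 listed starts, chr5:107725806-107726055, minus strand: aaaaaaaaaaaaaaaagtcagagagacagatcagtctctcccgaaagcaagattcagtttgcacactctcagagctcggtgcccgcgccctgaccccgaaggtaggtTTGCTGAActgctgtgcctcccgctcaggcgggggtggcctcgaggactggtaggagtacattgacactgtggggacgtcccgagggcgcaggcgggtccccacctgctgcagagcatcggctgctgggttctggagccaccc
The letters searched on both strands were TATAAA, the promoter box, CCAAT, the box of NF-Y, GAGGAA for PU.1, TTGCNNAA for C/EBP dimers, TTGCG for 1 C/EBP monomer, AAATC for Gfi1, AGATAA for GATA factors and ACAAGATA for Evi1. The Evi1 and GATA motifs can overlap, and the monomer motif can lie inside the dimer one. The Cebpa window held TTGCG, found in 14.5% of all 32851 windows, from 185 to 181 bases before the start, and TATAAA, found in 12.4%, from 30 to 25 bases before it. The Cebpg window held CCAAT, read on the opposite strand as ATTGG and found in 33.8% of windows, from 89 to 85 and from 28 to 24 bases before the start. The Gfi1 window held TTGCNNAA as TTGCTGAA, found in 9.56% of windows, from 143 to 136 bases before the start. The share of G and C was 66.4% for Cebpa, 70.8% for Cebpg and 59.2% for Gfi1, against a median of 52.4% over all windows. Windows of 5 of the 8 genes were in the RefSeq table, and the letters of a match describe the sequence only.

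A pair of libraries went against their labels. The library labelled WT HSC replicate 3 had only 0.0167 TPM of Mecom, against 161 and 114 TPM for its group mates. That labelled WT KL replicate 1 had 90.8 TPM, against 0.0107 and 0.325 TPM for its group mates. Ly6a, the gene of Sca-1, was at 0 TPM in the first of these libraries and at 19.7 TPM in the second. Evi1 HSC libraries held 209, 176 and 210 TPM of Mecom and 23.4, 27.3 and 25.4 TPM of Egfp, against at most 0.380 TPM of Egfp in the other 6. Over all tested genes the library labelled WT HSC replicate 3 correlated more with WT KL replicates 2 and 3 (mean r 0.972) than with WT HSC replicates 1 and 2 (0.832). That labelled WT KL replicate 1 correlated more with WT HSC replicates 1 and 2 (0.955) than with WT KL replicates 2 and 3 (0.827). Each result is therefore given over the 9 libraries as labelled and over the 7 libraries without this pair. Neither library was moved to another group. The pair was left out on expression values of these same data. The p-values and intervals over the 7 libraries do not account for that choice. In bulk samples, fewer cells of a type and less RNA per cell cannot be told apart.

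Spi1 and Gfi1 were among the more abundant transcripts of both stem cell groups and were lower in WT KL replicates 2 and 3, while Cebpa was close to 0 in the stem cell groups and present in those WT KL libraries. None of the 7 tested genes was called between Evi1 HSC and WT HSC. Differences were tested with limma on log2(TPM + 1) with Benjamini-Hochberg adjustment over all tested genes, and calls required an adjusted p under 0.05. Fold changes below are differences between group means on that scale and are too small for genes of low TPM.

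**Figure D1:**
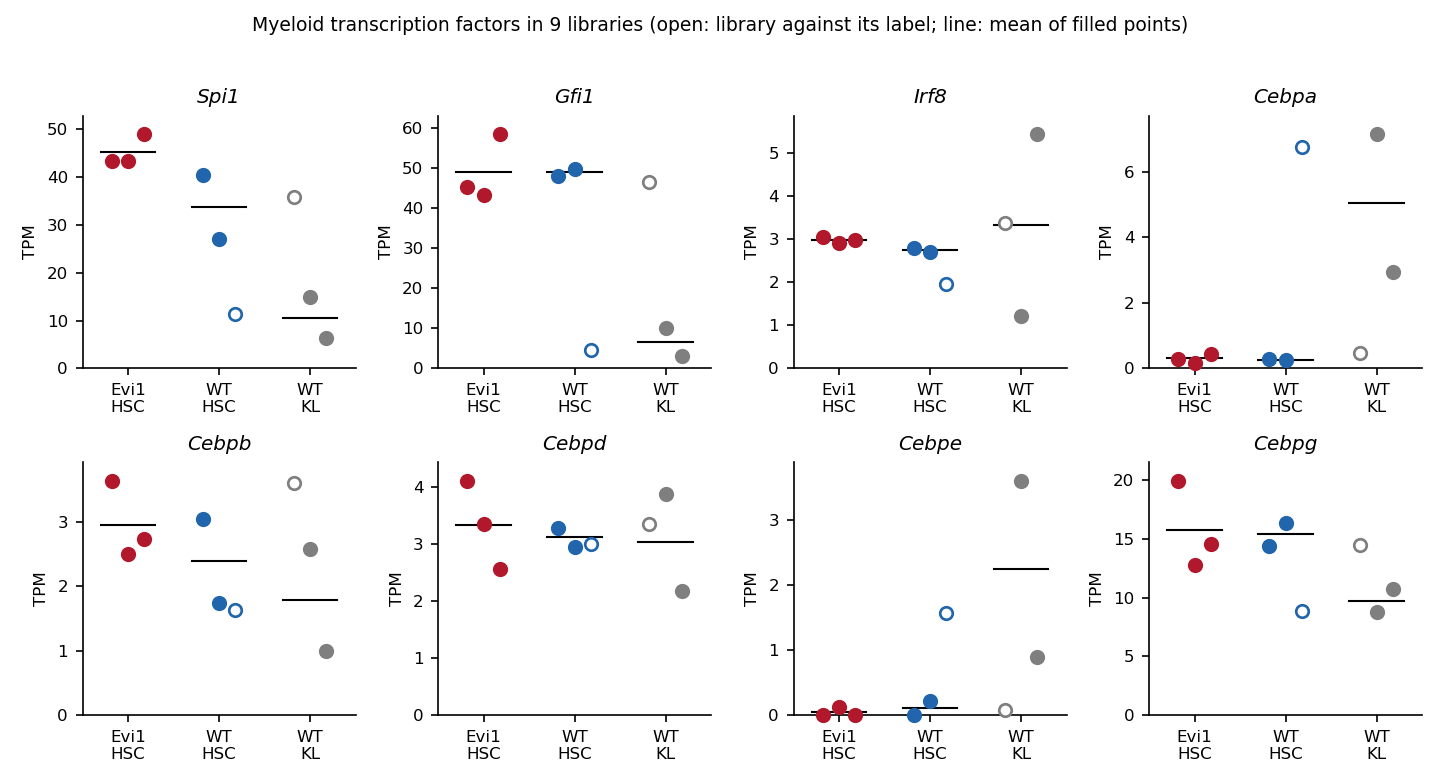
TPM of the 8 genes in each library, by group, with Evi1 HSC left of WT HSC and WT KL. Filled symbols are libraries that followed their label, open symbols the 2 that did not, and the line is the mean of the filled ones. Gfi1 sits between 43.2 and 58.5 TPM in all 5 filled stem cell libraries and at 10.1 and 3.17 TPM in the filled WT KL libraries.

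Over the 7 libraries, 0 of 7 tested genes were called between Evi1 HSC and WT HSC. Of all tested genes 0.206% were called there (0.0565% higher and 0.149% lower). An unadjusted p under 0.05 was reached by 0 of the 7 and by 1635 of all 19461 tested genes. Between WT HSC and WT KL 3 of 7 were called, 2 higher and 1 lower, where 37.5% of all genes were called. Between Evi1 HSC and WT KL 4 of 7 were called, 3 higher and 1 lower, where 45.5% of all genes were called. Those shares of members lie near the background, and Cebpa counts among them although the filter favoured it. Both comparisons with WT KL share its libraries. Of all genes, 26.7% were higher and 10.8% lower in WT HSC than in WT KL, and 31.3% were higher and 14.3% lower in Evi1 HSC than in WT KL. Quantile normalization turned these splits, to 2999 higher and 3155 lower in WT HSC, and to 3663 higher and 4014 lower in Evi1 HSC. The median log2 fold change of all tested genes was 0.26 for WT HSC against WT KL and 0.28 for Evi1 HSC against WT KL on the log2(TPM + 1) scale. Over the 9 libraries as labelled 0 of 7 were called by limma in each comparison, where 0.00514%, 0.00514% and 0.0103% of all genes were called for Evi1 HSC against WT HSC, for WT HSC and for Evi1 HSC each against WT KL. At an unadjusted p under 0.05 the 9 libraries gave 0, 0 and 1 of the 7, the last being Spi1. Of all 19461 tested genes 907, 282 and 2956 were under it in the same order.

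Spi1 (chr2:91082390-91115756, plus strand of GRCm38, with no exonic base shared with another gene) held 43.3, 43.4 and 48.9 TPM in Evi1 HSC, against 40.4 and 27.0 TPM in WT HSC replicates 1 and 2 and 14.9 and 6.29 TPM in WT KL replicates 2 and 3. For the library labelled WT HSC replicate 3 the value was 11.3 TPM, and for that labelled WT KL replicate 1 it was 35.8 TPM. All 3 Evi1 HSC libraries lay above all WT HSC libraries, with or without the library labelled WT HSC replicate 3, and above the WT KL libraries. How many of all tested genes stood apart in this way was not counted, here or for the genes below. Spi1 ranked at the 89th to 91st percentile of tested genes in Evi1 HSC, and at the 69th and 55th in WT KL replicates 2 and 3. The log2 fold change was 0.44 (SE 0.33, 95% interval -0.35 to 1.23, adjusted p = 0.80) for Evi1 HSC against WT HSC over 7 libraries. Spi1 was higher in WT HSC than in WT KL by 1.66 (SE 0.36, 95% interval 0.80 to 2.53, adjusted p = 0.012) and higher in Evi1 HSC than in WT KL by 2.10 (SE 0.33, 95% interval 1.31 to 2.89, adjusted p = 0.0026). The WT HSC call was lost with the replicate number as a block, at 1.44 (adjusted p = 0.071), and without WT HSC replicate 1, at 1.38 (adjusted p = 0.065). Without WT KL replicate 3 the WT HSC value was 1.10 (adjusted p = 0.038), and without WT KL replicate 2 it was 2.22 (adjusted p = 0.0052). Over the 9 libraries the values were 0.93 (adjusted p = 0.79) for Evi1 HSC against WT HSC, 0.58 (adjusted p = 0.96) for WT HSC against WT KL and 1.51 (adjusted p = 0.31) for Evi1 HSC against WT KL.

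Gfi1 (chr5:107716657-107726036, minus strand; 101 of 3187 exonic bases shared with A430072P03Rik) held 45.4, 43.2 and 58.5 TPM in Evi1 HSC, against 48.1 and 49.8 TPM in WT HSC replicates 1 and 2. Among the others, WT KL replicates 2 and 3 had 10.1 and 3.17 TPM, that labelled WT HSC replicate 3 had 4.59 TPM and that labelled WT KL replicate 1 had 46.6 TPM. The Evi1 HSC and WT HSC libraries overlapped, and both lay above WT KL replicates 2 and 3. The log2 fold change was -0.011 (SE 0.38, 95% interval -0.92 to 0.90, adjusted p = 0.998) for Evi1 HSC against WT HSC. It was 2.87 (SE 0.42, 95% interval 1.88 to 3.87, adjusted p = 0.0026) for WT HSC against WT KL, a ratio of mean TPM of 7.35, and 2.86 (SE 0.38, 95% interval 1.95 to 3.77, adjusted p = 0.0013) for Evi1 HSC against WT KL, a ratio of 7.36. Both calls against WT KL held under every 7-library alternative run. With all 9 libraries the values were 1.04 (adjusted p = 0.79), 0.89 (adjusted p = 0.96) and 1.93 (adjusted p = 0.32) in the same order of comparisons.

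**Figure D2:**
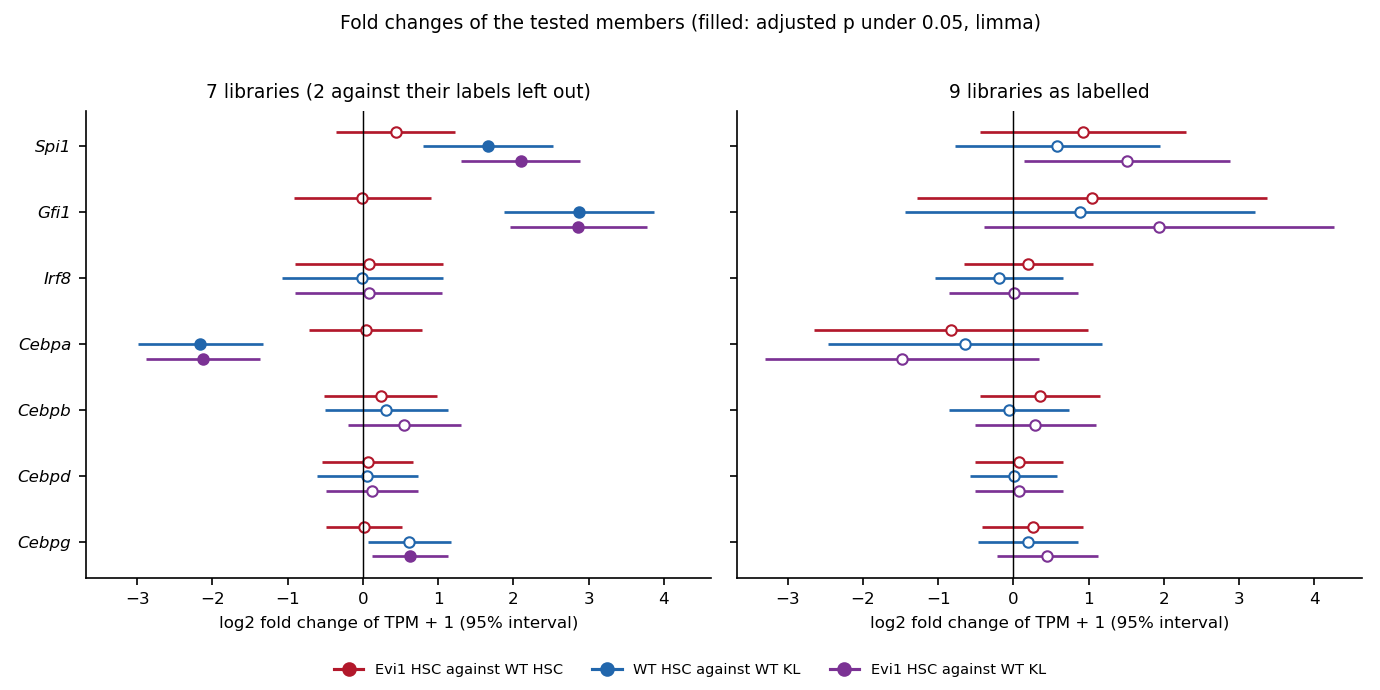
Log2 fold changes of the 7 tested genes with 95% intervals from limma, in the 7-library fit and the fit to the 9 libraries as labelled, for Evi1 HSC against WT HSC and then for WT HSC and for Evi1 HSC, each against WT KL. Gfi1 and Spi1 lie right of 0 and Cebpa left of 0 in the 7-library comparisons with WT KL, with wider intervals over 9 libraries; filled points were called at an adjusted p under 0.05.

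Irf8 (chr8:120736358-120756694, plus strand, with no shared exonic base) held 3.05, 2.90 and 2.99 TPM in Evi1 HSC, against 2.80 and 2.72 TPM in WT HSC replicates 1 and 2 and 1.21 and 5.44 TPM in WT KL replicates 2 and 3. For the library labelled WT HSC replicate 3 the value was 1.97 TPM, and for that labelled WT KL replicate 1 it was 3.39 TPM. The Evi1 HSC libraries did not overlap WT HSC but lay only just above it, at 2.90 TPM against 2.80 TPM at the edge. WT KL replicates 2 and 3 lay on either side of both. The log2 fold change was 0.082 (SE 0.41, 95% interval -0.90 to 1.06, adjusted p = 0.98) for Evi1 HSC against WT HSC and -0.0068 (SE 0.45, 95% interval -1.08 to 1.07, adjusted p = 0.99) for WT HSC against WT KL. It was 0.076 (SE 0.41, 95% interval -0.90 to 1.05, adjusted p = 0.90) for Evi1 HSC against WT KL, where it was 0.85 (adjusted p = 0.041) without WT KL replicate 3 and -0.69 (adjusted p = 0.065) without WT KL replicate 2. All 9 libraries gave 0.20, -0.19 and 0.0037 for the 3 comparisons in the order given, none of them called.

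Among the C/EBP genes, Cebpa (chr7:35119293-35121928, plus strand, in 1 exonic block; 51 of 2636 exonic bases shared with Gm45091) encodes C/EBPα, which is needed to form granulocyte and monocyte progenitors. It held 0.296, 0.166 and 0.443 TPM in Evi1 HSC, against 0.277 and 0.254 TPM in WT HSC replicates 1 and 2 and 7.14 and 2.95 TPM in WT KL replicates 2 and 3. For the library labelled WT HSC replicate 3 the value was 6.74 TPM, and for that labelled WT KL replicate 1 it was 0.476 TPM. The stem cell libraries overlapped each other and lay below WT KL replicates 2 and 3. The log2 fold change was 0.035 (SE 0.32, 95% interval -0.72 to 0.79, adjusted p = 0.99) for Evi1 HSC against WT HSC. It was -2.16 (SE 0.35, 95% interval -2.99 to -1.33, adjusted p = 0.0039) for WT HSC against WT KL and -2.13 (SE 0.32, 95% interval -2.88 to -1.37, adjusted p = 0.002) for Evi1 HSC against WT KL, both calls holding under every 7-library alternative in which the gene was tested. At these low levels the size depended on the pseudocount, and the change in Evi1 HSC against WT KL was -3.61 (adjusted p = 0.0022) with 0.1 TPM added and -0.89 (adjusted p = 0.0055) with 5 TPM added, and in WT HSC against WT KL -3.68 (adjusted p = 0.004) and -0.90 (adjusted p = 0.01). As labelled, 9 libraries gave -0.84 (adjusted p = 0.79), -0.64 (adjusted p = 0.96) and -1.48 (adjusted p = 0.32) for Evi1 HSC against WT HSC, for WT HSC and for Evi1 HSC each against WT KL.

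Cebpe (chr14:54710360-54712174, minus strand, with no shared exonic base) encodes C/EBPε, a factor of late granule genes. It was listed at 0, 0.117 and 0 TPM in Evi1 HSC, 0 and 0.220 TPM in WT HSC replicates 1 and 2 and 3.60 and 0.890 TPM in WT KL replicates 2 and 3. For the library labelled WT HSC replicate 3 the value was 1.56 TPM, and for that labelled WT KL replicate 1 it was 0.0842 TPM. The Evi1 HSC and WT HSC libraries lay below WT KL replicates 2 and 3. Without the filter on low values the log2 fold change was -1.51 (adjusted p = 0.047) for Evi1 HSC against WT KL and -1.42 (adjusted p = 0.082) for WT HSC against WT KL, and over the 9 libraries it was -1.03 (adjusted p = 0.44) and -0.53 (adjusted p = 0.996).

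Cebpg (chr7:35046422-35056573, minus strand; 77 of 5621 exonic bases shared with Gm44836 and Gm45095) encodes C/EBPγ, which lacks a typical activation domain and acts mainly as a dimer partner. It lies 62719 bases from Cebpa. It held 19.9, 12.8 and 14.5 TPM in Evi1 HSC, against 14.4 and 16.4 TPM in WT HSC replicates 1 and 2 and 8.73 and 10.7 TPM in WT KL replicates 2 and 3. For the library labelled WT HSC replicate 3 the value was 8.86 TPM, and for that labelled WT KL replicate 1 it was 14.5 TPM. Both stem cell groups lay above WT KL replicates 2 and 3 and overlapped each other. The log2 fold change was 0.63 (SE 0.21, 95% interval 0.12 to 1.13, adjusted p = 0.049) for Evi1 HSC against WT KL and 0.62 (SE 0.23, 95% interval 0.063 to 1.17, adjusted p = 0.077) for WT HSC against WT KL. The call for Evi1 HSC was lost with a pseudocount of 5, no filter, quantile normalization, the compared groups alone, the replicate block and 6 of 7 left-out libraries (all but Evi1 HSC replicate 2), with an adjusted p of 0.056 to 0.23. Leaving out Evi1 HSC replicate 1 brought a call for WT HSC against WT KL, at 0.62 (adjusted p = 0.045). For Evi1 HSC against WT HSC it was 0.011 (SE 0.21, 95% interval -0.49 to 0.52, adjusted p = 0.996). All 9 libraries gave 0.25, 0.19 and 0.45 for Evi1 HSC against WT HSC, for WT HSC and for Evi1 HSC each against WT KL, none of them called.

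Cebpb and Cebpd encode C/EBPβ, a factor of granulopoiesis under stress, and C/EBPδ, which responds to inflammation. Cebpb (chr2:167688915-167690418, plus strand; 312 of 1504 exonic bases shared with Tmem189) held 3.63, 2.495 and 2.73 TPM in Evi1 HSC, against 3.04 and 1.74 TPM in WT HSC replicates 1 and 2 and 2.58 and 1.001 TPM in WT KL replicates 2 and 3. Cebpd (chr16:15887286-15891031, plus strand; 562 of 3746 exonic bases shared with Spidr) held 4.11, 3.36 and 2.57 TPM in Evi1 HSC, against 3.29 and 2.96 TPM in WT HSC replicates 1 and 2 and 3.89 and 2.19 TPM in WT KL replicates 2 and 3. The libraries of the 3 groups overlapped for both genes. Cebpb had 1.63 TPM and Cebpd 3.002 TPM under the label WT HSC replicate 3, and 3.59 and 3.35 TPM under the label WT KL replicate 1. The 7-library log2 fold changes of Cebpb were 0.24 (adjusted p = 0.90), 0.31 (adjusted p = 0.51) and 0.55 (adjusted p = 0.20) for Evi1 HSC against WT HSC, for WT HSC and for Evi1 HSC each against WT KL. Those of Cebpd were 0.062 (adjusted p = 0.98), 0.061 (adjusted p = 0.88) and 0.12 (adjusted p = 0.72) in that order. With all 9 libraries Cebpb gave 0.35, -0.059 and 0.29, and Cebpd 0.076, 0.00066 and 0.077, none of them called. The strand setting of the counting is not known here, so values of genes that share exonic bases are less certain.

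TPM is per length, so the C/EBP genes of 1 library can be set side by side. Cebpg held 71.3, 67.6 and 71.7% of the summed C/EBP TPM in Evi1 HSC, against 68.6 and 76.0% in WT HSC replicates 1 and 2 and 33.7 and 60.4% in WT KL replicates 2 and 3. Cebpa held 1.06, 0.878 and 2.19% in Evi1 HSC, against 1.32 and 1.18% in WT HSC and 27.5 and 16.6% in WT KL. Cebpe held at most 0.619% in Evi1 HSC and 1.02% in WT HSC, and 13.9 and 5.02% in WT KL. The stem cell groups overlapped in each of these shares and both stood apart from the WT KL pair. The library labelled WT HSC replicate 3 gave 40.6% to Cebpg and 30.9% to Cebpa, and the library labelled WT KL replicate 1 gave 65.9% and 2.17%. The summed C/EBP level was 28.0, 18.9 and 20.3 TPM in Evi1 HSC, 21.0 and 21.5 TPM in WT HSC, and 25.9 and 17.7 TPM in WT KL, groups that overlap.

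**Figure D3:**
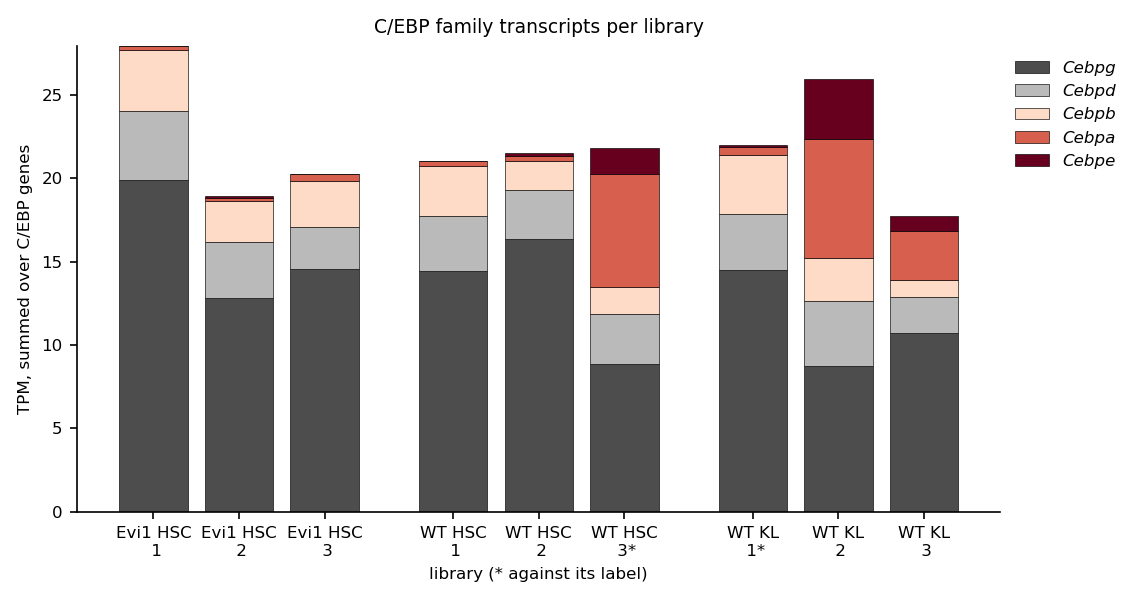
TPM of the 5 C/EBP genes, stacked to their sum in each library, with Evi1 HSC left of WT HSC and WT KL. An asterisk marks a library that went against its label. Cebpg holds 67.6 to 71.7% of the summed TPM in Evi1 HSC and 33.7 and 60.4% of it in WT KL replicates 2 and 3.

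PU.1 and Gata1, an erythroid and megakaryocyte factor, antagonise each other. The log2 ratio of Spi1 to Gata1, with 1 TPM added to each, was 3.09, 3.21 and 3.72 in Evi1 HSC, against 1.18 and 0.54 in WT HSC replicates 1 and 2 and -2.77 and -4.03 in WT KL replicates 2 and 3. Under the label WT HSC replicate 3 it was -3.03, and under the label WT KL replicate 1 it was 1.89. The groups of the 7 libraries did not overlap. Evi1 HSC exceeded WT HSC by 2.48 (two-sided exact permutation p = 0.2) and WT KL by 6.74 (exact p = 0.2), and 0.2 is the smallest p that 3 against 2 libraries allow. WT HSC exceeded WT KL by 4.26 (exact p = 0.333, the smallest that 2 against 2 allow). For the 9 libraries as labelled Evi1 HSC exceeded WT HSC by 3.78 (exact p = 0.1) and WT KL by 4.98 (exact p = 0.1), and WT HSC exceeded WT KL by 1.20 (exact p = 0.8), where 0.1 is the smallest that 3 against 3 allow. Gata1 itself held 4.20, 3.79 and 2.79 TPM in Evi1 HSC, against 17.3 and 18.2 TPM in WT HSC replicates 1 and 2, and was called lower at -2.04 (adjusted p = 0.018). The log2 ratio of Cebpa to Spi1 was -5.10, -5.25 and -5.11 in Evi1 HSC, against -5.02 and -4.48 in WT HSC and -0.96 and -0.89 in WT KL. Evi1 HSC lay below WT HSC by a difference of -0.40 (exact p = 0.2), and with 0.1 TPM added these groups overlapped (exact p = 0.4). The ratio differed by -4.23 for Evi1 HSC against WT KL (exact p = 0.2) and by -3.82 for WT HSC against WT KL (exact p = 0.333). With all 9 libraries the differences were -1.76 for Evi1 HSC against WT HSC (exact p = 0.1), -2.99 for Evi1 HSC against WT KL (exact p = 0.1) and -1.23 for WT HSC against WT KL (exact p = 0.7).

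**Figure D4:**
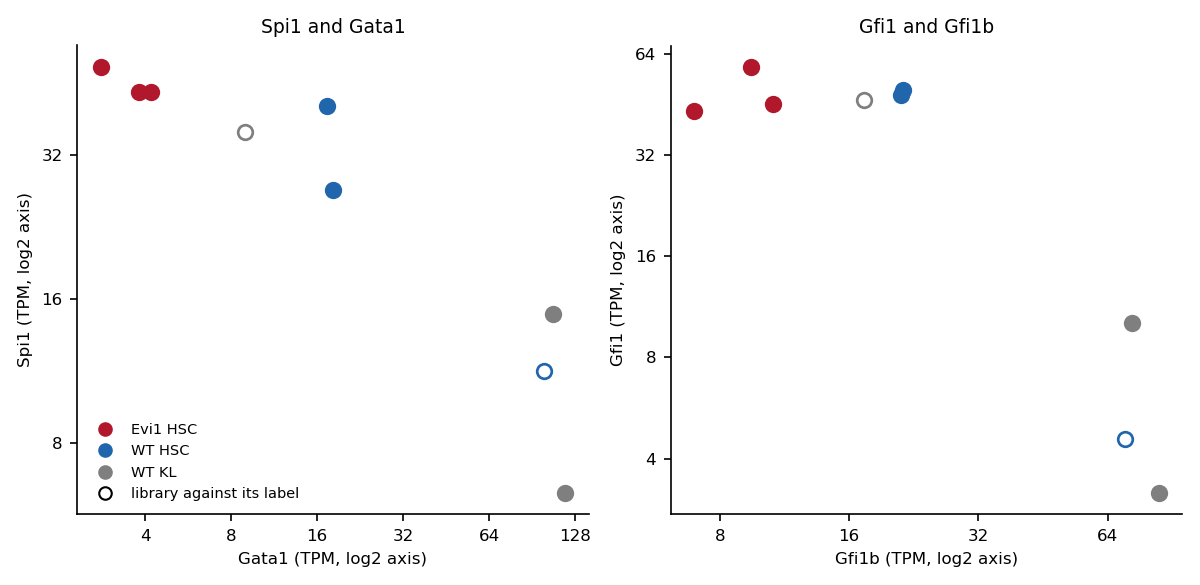
Spi1 against Gata1 and Gfi1 against Gfi1b in each library, in TPM on log2 axes; open symbols are the libraries that went against their label. Evi1 HSC libraries have 2.79 to 4.20 TPM of Gata1 and WT HSC replicates 1 and 2 have 17.3 and 18.2 TPM, while WT KL replicates 2 and 3 lie at low Spi1 and high Gata1.

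The lists that follow use the 7-library fit, and their WT HSC and WT KL values are those of replicates 1 and 2 and of replicates 2 and 3. Of the tested genes in these lists, 17 reached the 1 TPM of the filter on 1 side only. The filter thus favoured a difference in these genes, and counts that hold them are a description. Trib2, Fcgr3, Ctsg, Elane and Ms4a3 reached 1 TPM only in WT KL replicates 2 and 3 and the library labelled WT HSC replicate 3. Trib1, Trib3, Irf4, Flt3, Il3ra, Egr1, Irf5, Maf, Nab2, Nr4a1, Ctss and Ltf reached it only among the other 6 libraries. A gene of this last set need not separate the groups. Ctss held 3.49, 2.33 and 0.364 TPM in Evi1 HSC, 0.849 and 0.697 TPM in WT HSC and 0.947 and 0.263 TPM in WT KL. The counts against WT KL stand beside the all-gene shares of 31.3% higher and 14.3% lower in Evi1 HSC, and 26.7% higher and 10.8% lower in WT HSC, and several of them moved under quantile normalization.

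Among partners, antagonists and relatives of PU.1, 10 of 12 genes were tested, and Gata1 alone was called between Evi1 HSC and WT HSC. The list's median log2 fold change was 0.01, against 0.00053 over all genes. Against WT KL 7 were higher and 1 lower in Evi1 HSC, and 7 higher and 1 lower in WT HSC, with medians of 1.64 and 1.62, where all genes had medians of 0.28 and 0.26. Under quantile normalization 6 were higher in Evi1 HSC, Irf4 having lost its call in both groups, and 7 in WT HSC, with 1 lower in each. Etv6, an ETS repressor, held 113, 101 and 111 TPM in Evi1 HSC, 92.9 and 101 TPM in WT HSC and 23.2 and 17.4 TPM in WT KL. The log2 fold change of Fli1, an ETS activator, was 3.18 (adjusted p = 7.8e-05) for Evi1 HSC against WT KL, and that of Gata2, a stem and progenitor factor, was 2.47 (adjusted p = 0.00029). Gata1 was lower than in WT KL in Evi1 HSC, at -4.64 (adjusted p = 1.5e-05), and in WT HSC, at -2.60 (adjusted p = 0.0002).

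Of 11 partners and regulators of C/EBP proteins, all tested, 0 were called between Evi1 HSC and WT HSC (median -0.045). Against WT KL 3 were higher and 3 lower in both stem cell groups, with medians of 0.28 for Evi1 HSC and 0.33 for WT HSC. Under quantile normalization 1 was higher and 4 lower in Evi1 HSC, and 1 higher and 2 lower in WT HSC. Trib2, a pseudokinase that directs C/EBPα to degradation, held 0.457, 0.332 and 0.117 TPM in Evi1 HSC, 0.710 and 0.942 TPM in WT HSC and 3.89 and 5.18 TPM in WT KL. Trib1, a relative with the same activity, held 1.34, 1.17 and 1.996 TPM in Evi1 HSC, 0.605 and 1.51 TPM in WT HSC and 0.0268 and 0.0445 TPM in WT KL, and so lay the other way. For Evi1 HSC against WT KL, Crebbp, a coactivator, was higher at 0.98 (adjusted p = 0.0017). Atf4, a stress factor that pairs with C/EBP proteins, was lower there at -0.84 (adjusted p = 0.012).

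Of 8 relatives and corepressors of Gfi1, 7 were tested and 0 called between Evi1 HSC and WT HSC (median -0.12), with Hdac1 at 0.063 (adjusted p = 0.95) and Hdac2 at -0.14 (adjusted p = 0.82). Gfi1b, the erythroid and megakaryocyte paralog, held 10.7, 6.97 and 9.43 TPM in Evi1 HSC, against 21.2 and 21.4 TPM in WT HSC replicates 1 and 2 and 72.9 and 84.1 TPM in WT KL replicates 2 and 3. These groups did not overlap, but the difference between Evi1 HSC and WT HSC was -1.17 (adjusted p = 0.11) and not called. Gfi1b was lower than in WT KL in Evi1 HSC, at -3.002 (adjusted p = 6.7e-05), and in WT HSC, at -1.83 (adjusted p = 0.00096), the opposite sign to Gfi1. Cbfa2t3, a corepressor of the ETO family, was higher at 1.79 (adjusted p = 0.00063) and 2.21 (adjusted p = 0.00063).

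Of 12 monocyte and dendritic cell factors 8 were tested, with 0 called between Evi1 HSC and WT HSC (median 0.43), Zeb2 at -0.68 (adjusted p = 0.80) and Irf7 at 1.57 (adjusted p = 0.58). Against WT KL 6 were higher and 0 lower in Evi1 HSC (median 1.92), and 4 higher and 0 lower in WT HSC (median 1.15). Under quantile normalization 4 were higher in Evi1 HSC and 1, Nab2, in WT HSC, with 0 lower in either, and 5 of the 8 reached the filter only among the stem cell libraries and the library labelled WT KL replicate 1. Nab2, an Egr cofactor, held 11.8, 11.5 and 11.9 TPM in Evi1 HSC, against 7.94 and 4.97 TPM in WT HSC, and it was listed at 0 in WT KL replicates 2 and 3. Id2, an inhibitor of E proteins, was higher in Evi1 HSC than in WT KL at 2.09 (adjusted p = 0.0029). Nr4a1, an orphan nuclear receptor, held 2.02, 3.32 and 3.77 TPM in Evi1 HSC, 0.749 and 1.76 TPM in WT HSC and 0.0276 and 0.0522 TPM in WT KL.

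Of 8 cytokine receptors of myeloid cells 7 were tested, with 0 called between Evi1 HSC and WT HSC (median 0.32), Csf3r at -0.59 (adjusted p = 0.71) and Csf2rb at -0.77 (adjusted p = 0.53). Against WT KL 5 were higher and 1 lower in Evi1 HSC, and 4 higher and 1 lower in WT HSC. Under quantile normalization 3 were higher in Evi1 HSC and 2, Csf3r and Flt3, in WT HSC, with 1 lower in each. Csf1r, the receptor of the macrophage growth factor and a target of PU.1, held 1.90, 1.83 and 2.06 TPM in Evi1 HSC, 1.21 and 1.29 TPM in WT HSC and 6.73 and 7.68 TPM in WT KL. It was lower than in WT KL in Evi1 HSC, at -1.48 (adjusted p = 0.00069), and in WT HSC, at -1.86 (adjusted p = 0.00064). Flt3, a receptor of early progenitors, held at least 7.95 TPM in each Evi1 HSC library, 8.06 and 8.005 TPM in WT HSC and 0.693 and 0.698 TPM in WT KL.

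Primary granule genes, several of which C/EBPα and PU.1 activate, were all tested (7 of 7), and 5 were lower and 0 higher in Evi1 HSC than in WT KL, and 4 lower and 0 higher in WT HSC. Elane, Ctsg and Ms4a3, 3 of the genes called lower in both, had to differ to pass the filter. Mpo, the myeloperoxidase gene, held 5.22, 5.65 and 14.2 TPM in Evi1 HSC, 13.3 and 8.24 TPM in WT HSC and 812 and 279 TPM in WT KL, a log2 fold change of -5.80 (adjusted p = 0.00032) for Evi1 HSC against WT KL. Ctsg, the cathepsin G gene, was listed at 0 in all Evi1 HSC libraries and in WT HSC replicates 1 and 2, and held 180 and 91.0 TPM in WT KL. Between Evi1 HSC and WT HSC 0 of 7 were called, with a list median of -0.074. Of 8 secondary granule genes 3 were tested, and 2 were higher and 0 lower in Evi1 HSC than in WT KL, and 1 higher and 0 lower in WT HSC. Under quantile normalization Cybb, an oxidase subunit gene, was called lower in both, at -1.22 (adjusted p = 0.0068) in Evi1 HSC and -1.40 (adjusted p = 0.0079) in WT HSC. Of these genes, Itgam, an integrin gene of myeloid cells, was higher in Evi1 HSC than in WT KL at 2.76 (adjusted p = 0.0017), and Ltf, the lactoferrin gene, held 2.10, 1.97 and 1.13 TPM in Evi1 HSC and was listed at 0 in WT KL. Of 8 monocyte and macrophage products 6 were tested, and 2 were higher and 1 lower than in WT KL in both stem cell groups. Cd68, which encodes a lysosomal protein of macrophages, lost its call in WT HSC under quantile normalization. Lyz2, the lysozyme gene, was higher in Evi1 HSC than in WT KL at 1.60 (adjusted p = 0.00082) and Cd68 at 1.54 (adjusted p = 0.0022), while Fcgr3, an immunoglobulin receptor gene, held 0, 0.209 and 0.192 TPM in Evi1 HSC, 0 and 0.0786 TPM in WT HSC and 30.4 and 12.8 TPM in WT KL. Neither list had a call between Evi1 HSC and WT HSC, where Itgam, Cybb, Lyz2 and Tyrobp had log2 fold changes of 0.025, 0.11, -0.38 and 0.30. Over the 9 libraries as labelled no gene of these lists was called.

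**Figure D5:**
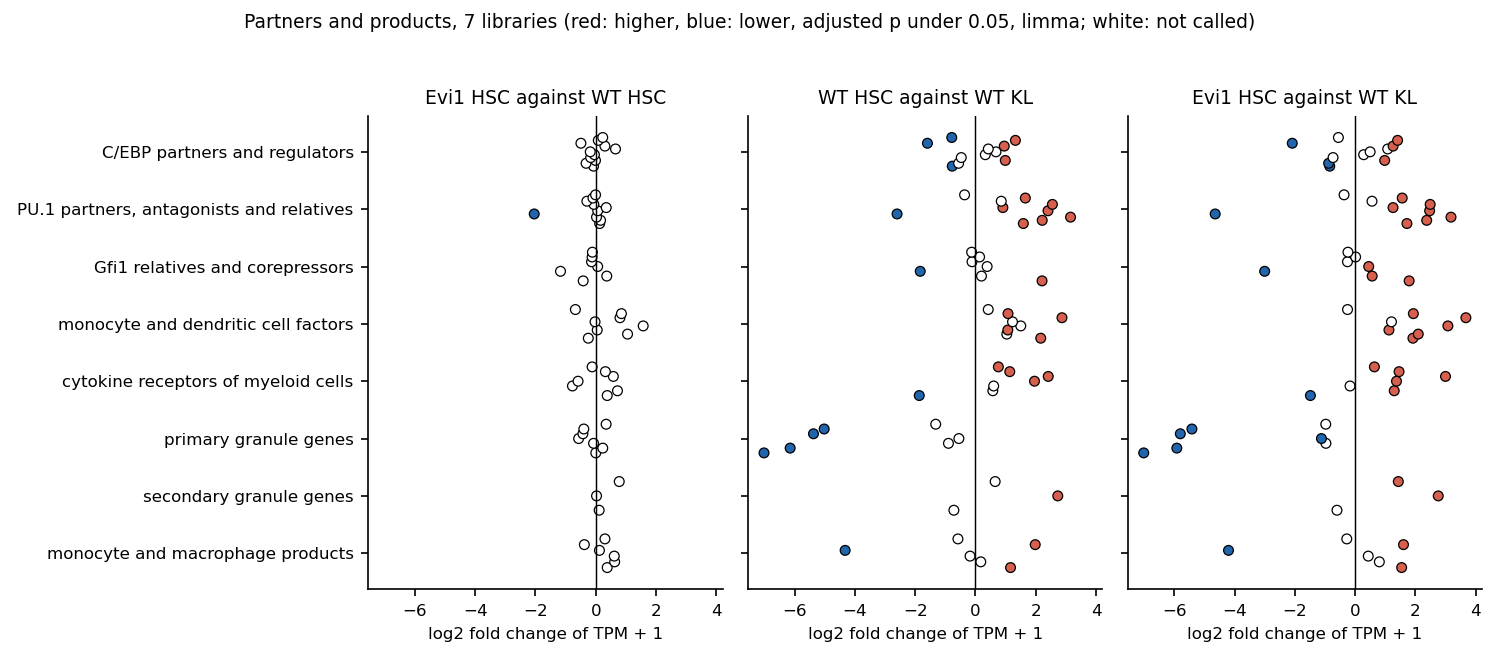
Log2 fold changes of the tested genes of each list in the 7-library fit, for Evi1 HSC against WT HSC and then for WT HSC and for Evi1 HSC, each against WT KL. Each point is a gene, red where called higher, blue where called lower and white where not called at an adjusted p under 0.05; points of genes listed at 0 in a whole group, such as Ctsg and Nab2, depend on the pseudocount. The primary granule genes lie furthest left against WT KL, and Gata1 is the one coloured point between Evi1 HSC and WT HSC.

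Markers of other cells moved with these groups. The 5 granulocyte and monocyte progenitor markers summed to 32.2 to 37.6 TPM in Evi1 HSC, 24.9 to 39.6 TPM in WT HSC replicates 1 and 2, and 471 to 1304 TPM in WT KL replicates 2 and 3. Prtn3 alone made up most of each stem cell sum, at 15.7 to 28.8 TPM per library. Its level was 103 TPM for WT KL replicate 2 but 25.9 TPM for replicate 3, inside that stem cell range. Mpo, Elane, Ctsg and Ms4a3 were each lower in all 5 stem cell libraries than in either of those WT KL libraries. The 5 erythroid markers summed to 8.78 to 16.3 TPM in Evi1 HSC, 83.4 to 87.1 TPM in WT HSC and 526 to 552 TPM in WT KL, and the 8 stem cell markers to 566 to 644, 493 to 509 and 2.83 to 4.26 TPM. The 5 neutrophil markers summed to 1.85 to 2.24 TPM in Evi1 HSC, 1.13 to 1.16 TPM in WT HSC and 136 to 761 TPM in WT KL. Of these, S100a8 and S100a9 were at 0 in all of the 5 stem cell libraries. Ltf went the other way, at 2.10, 1.97 and 1.13 TPM in Evi1 HSC, 0.679 and 0.473 TPM in WT HSC and 0 in WT KL. Ngp held at most 0.338 TPM in any library, and Camp at most 3.10 TPM, in WT KL replicate 2. The 5 endothelial markers, which stem cells share in part, summed to 72.4 to 90.5 TPM in Evi1 HSC, 36.6 to 81.8 TPM in WT HSC and 2.61 to 4.33 TPM in WT KL. Their part in the differences of Spi1, Gfi1, Cebpa and Cebpe was not tested. None of the 7 macrophage markers passed the filter, and their sum was at most 3.55 TPM in any library.

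Likeness was measured as Pearson's r of log2(TPM + 1) over the 9 libraries, among 8643 tested genes with 10 TPM or more in at least 1 library. Predicted and clone-named genes and the members themselves were left out of these. Because the libraries fall into 2 clusters, these r are descriptive. Spi1 was most like Tle5 (0.996), Idh2 (0.993) and Spint2 (0.992), and Gfi1 most like Tes, Man2b1 (both 0.997) and Tnfrsf1a (0.996). Cebpa was most like F13a1 (0.994), Fam207a (0.993) and Tspoap1 (0.991), and Cebpg most like Fam49a (0.972), Mir7657 and Klhl18 (both 0.970). The nearest genes were less alike for Cebpb, with Mob3b (0.959), Pank3 (0.957) and Tmem170b (0.950). They were also less alike for Cebpd, with Actr3 (0.938), Chp1 (0.889) and Rbm15 (0.879), and for Irf8, with Smad2 (0.921), Sfmbt1 (0.899) and Dbt (0.866).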

How the data were processed

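RNA of 9 libraries was measured, 3 per group. The deposited values are TPM per gene, 1 library per file, made by the authors; in WT HSC replicate 2 the column is headed C_H3 and was used as TPM. Per the submitters' processing notes, HISAT2, StringTie and mm10 were used; roles, versions and strand setting are not stated there. TPM carries no read depth, so intervals for counting error are not available and a 0 means undetected at an unknown depth.

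In R 4.3.3, limma 3.58.1 was fitted to log2(TPM + 1), with a mean per group, a trended empirical Bayes spread and Benjamini-Hochberg adjustment over the 19461 genes that reached 1 TPM in 3 libraries or more. The fit was tested on simulated data that held no library against its label, so that test does not cover the labelling or the exclusion. Ratios were compared with two-sided exact permutation tests (scipy 1.17.1). All members were named, and from each list at most 4 called genes with the lowest adjusted p or, with none called, the 2 most abundant. Some are summarised as counts, and some that the rule selects are not reported here. Members and lists were chosen with earlier results of these data known. Gene positions are from GENCODE M21. Ddit3 has 2 gene IDs, and the more abundant was counted.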

Additional observations from a re-analysis of the deposited data

How the results depend on the processing

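Over the 9 libraries as labelled 0 members were called in each comparison, also with each library left out in turn (0 to 0). Without the libraries labelled WT HSC replicate 3 and WT KL replicate 1 the count was 3 for WT HSC against WT KL and 4 for Evi1 HSC against WT KL. With each of the 7 left out in turn it ranged from 0 to 0, 2 to 4 and 3 to 4 for Evi1 HSC against WT HSC, for WT HSC and for Evi1 HSC each against WT KL. The direction of Spi1 in all comparisons, and of Gfi1 and Cebpa against WT KL, was the same in every alternative run. The 5 TPM filter left Cebpa untested.

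Some log2 fold changes that were not called changed sign. In the 9 libraries, leaving out both gave -0.011 for Gfi1 and 0.035 for Cebpa (Evi1 HSC against WT HSC) and 0.31 for Cebpb (WT HSC against WT KL). Quantile normalization gave -0.031 for Irf8 and -0.14 for Cebpd (Evi1 HSC against WT HSC), -0.18 for Cebpd (WT HSC against WT KL), and -0.39, -0.13 and -0.32 for Irf8, Cebpb and Cebpd (Evi1 HSC against WT KL). A pseudocount of 5 gave -0.0053 for Cebpd (WT HSC against WT KL) and -0.033 for Irf8 (Evi1 HSC against WT KL). In the 7 libraries, rescaling to the listed genes gave -0.0020 for Cebpg (Evi1 HSC against WT HSC) and 0.062 for Irf8 (WT HSC against WT KL), and a pseudocount of 0.1 gave 0.083 for Irf8 there. Quantile normalization gave -0.35 and -0.55 for Cebpb and Cebpd (WT HSC against WT KL) and -0.51, -0.083 and -0.48 for Irf8, Cebpb and Cebpd (Evi1 HSC against WT KL). A pseudocount of 5 gave -0.014 for Irf8 (Evi1 HSC against WT KL). The cause was not tested.

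With 1 library left out, ranges in the 9 libraries for Evi1 HSC against WT HSC were -0.011 to 1.58 for Gfi1, -1.28 to 0.035 for Cebpa and -0.049 to 0.21 for Cebpd. For WT HSC against WT KL they were -0.61 to 0.16 for Irf8, -0.40 to 0.20 for Cebpb and -0.18 to 0.13 for Cebpd, and for Evi1 HSC against WT KL -0.42 to 0.35, -0.048 to 0.55 and -0.10 to 0.21. In the 7 libraries they were -0.14 to 0.072 for Gfi1, -0.042 to 0.11 for Cebpa, -0.16 to 0.14 for Cebpg, -0.042 to 0.52 for Cebpb and -0.063 to 0.20 for Cebpd (Evi1 HSC against WT HSC). They were -0.78 to 0.76 for Irf8, -0.11 to 0.73 for Cebpb and -0.25 to 0.37 for Cebpd (WT HSC against WT KL), and -0.69 to 0.85 for Irf8 and -0.18 to 0.43 for Cebpd (Evi1 HSC against WT KL).

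The labels do not say that a replicate number marks a shared litter, batch or day. Same-numbered deviations correlated at -0.034, -0.064 and -0.104 for Evi1 HSC against WT HSC, at 0.00075, 0.040 and -0.051 for Evi1 HSC against WT KL and at 0.62, -0.64 and 0.70 for WT HSC against WT KL, and not every sample correlated best with its own number. The group means behind these correlations include both libraries that went against their labels, so they cannot show whether the numbers pair the samples. With the replicate number as a block, the 7 libraries gave 0, 2 and 3 called members, and Gfi1 0.10 and Irf8 -0.12 (Evi1 HSC against WT HSC) and Irf8 0.24, Cebpb -0.024 and Cebpd -0.23 (WT HSC against WT KL). All called genes over 7 libraries numbered 40, 7307 and 8863, and 0, 4947 and 7526 with the block. The first ranged from 0 to 73 over all alternatives, and the others fell to 4291 and 5641 without WT KL replicate 3. Over 9 libraries 1, 1 and 2 were called, and 96 for Evi1 HSC against WT KL without WT KL replicate 1.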

Other observations

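The log2 ratio of Gfi1 to Gfi1b, chosen after its values were seen, was 1.99, 2.47 and 2.51 in Evi1 HSC, against 1.15 and 1.18 in WT HSC replicates 1 and 2 and -2.73 and -4.35 in WT KL replicates 2 and 3. Under the label WT HSC replicate 3 it was -3.67, and under the label WT KL replicate 1 it was 1.38.

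The WT KL replicates 2 and 3 differed from each other in several of the myeloid genes. Mpo stood at 812 and 279 TPM, Cebpe at 3.60 and 0.89 TPM, and Spi1 at 14.9 and 6.29 TPM. Irf8, at 1.21 and 5.44 TPM, was higher in replicate 3, as were Cebpg, at 8.73 and 10.7 TPM, and Csf1r, at 6.73 and 7.68 TPM.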
